A study of Rattus norvegicus with 12 samples.

Results

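The desmosome and adherens junction genes described here were 9 genes of the epithelial cell contacts, *Cdh1*, *Dsg2*, *Dsg3*, *Dsc2*, *Dsc3*, *Jup*, *Pkp1*, *Pkp3*, and *Dsp*. They were chosen by symbol from a table of read counts for 25620 genes and a table of FPKM values for 25524 genes, and all 9 were found in both tables. In stratified epithelium, adherens junctions join neighbouring cells through the actin cytoskeleton, and desmosomes join them through the keratin filaments. The transmembrane cadherins of both junctions bind the facing cell, armadillo proteins bind the cadherin tails, and the plakin desmoplakin ties the desmosomal plaque to keratin. In a skin wound, keratinocytes loosen these contacts as they migrate and build them again in the new epidermis.

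The libraries came from the dorsal wounds of male SD rats, obtained at 8 to 12 weeks of age and made diabetic with streptozotocin, each with a full-thickness punch wound. The wounds received normal saline (control), the dried snail mucus gel of *A. fulica* (d-SMG), the glycosaminoglycan isolated from that gel (s-GAG, named GAG in the sample labels), or a commercial alginate dressing (Alg). Wound tissue, labelled skin, was taken on day 3, 7, and 14 and sequenced as 1 library for each of the 4 treatments on each of the 3 days, 12 libraries in all. All rats were diabetic, so that no wound of a non-diabetic rat and no unwounded skin is among the libraries, and whether a library held 1 rat or several is not stated.

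The libraries held 13748887 to 38302461 reads on genes. Levels are given as TMM-normalized CPM, counts scaled to a common library size, and intervals are exact 95% intervals on the shares of reads, which cover the counting error only. With 1 library for each treatment and day, a same-day difference has no replicate check and carries no p-value. A gene was counted as past the fold when 2 libraries differed at least 2-fold and held at least 10 reads together. All 9 genes met that minimum in each of the 9 same-day comparisons.

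A pair of libraries stood apart from the rest. In the d-SMG library of day 3, 16 skeletal muscle genes took 19.7% of the reads (9.17% in the control of that day), and *Krt14*, the main keratin of basal keratinocytes, stood at 21.1 CPM against 2411 to 24605 CPM in the other 11 libraries. Of the skin markers searched there, the suprabasal genes *Flg2* and *Tgm3*, the sebaceous genes *Awat2* and *Far2*, and the hair follicle gene *Krt28* had 0 reads. The wound keratinocyte gene *Sprr1b* and 4 of the 5 melanocyte and Langerhans cell genes had 0 reads there as well. In the control of day 3, 1 of these 5 genes also had 0 reads, and the 5 summed to 7.18 CPM. The 12 hair follicle markers were low in both libraries, at 5.79 CPM in d-SMG and 14.6 CPM in the control. In the control of day 14, 1 wound keratinocyte gene had 0 reads. In the s-GAG library of day 14, the difference from the control changed with gene length, from a median log2 of 1.73 for genes under 1 kb to −1.33 for genes over 8 kb. In tissue that mixes cell types, fewer epithelial cells and less RNA per epithelial cell cannot be told apart.

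The 9 genes spanned a wide range of levels. On the FPKM scale, which divides reads by gene length and so allows genes to be compared, the medians over the 12 libraries were 198.7 for *Dsp*, 31.3 for *Dsc3*, 27.1 for *Pkp1*, 17.7 for *Cdh1*, and 12.7 for *Dsg3*. They were 9.56 for *Jup*, 7.20 for *Pkp3*, 3.96 for *Dsg2*, and 1.07 for *Dsc2*. *Dsp* was the highest of the 9 in 10 of 12 libraries, the exceptions being the d-SMG library of day 3, led by *Jup*, and the s-GAG library of day 14, led by *Cdh1*. Among neighbours in this order, *Dsp* was above *Dsc3* and *Pkp3* above *Dsg2* in 12 of 12 libraries, whereas *Dsc3* was above *Pkp1* in 7 of 12 and *Dsg3* above *Jup* in 9 of 12, so that the order of those neighbours was not fixed.

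*Cdh1* (chromosome 19) encodes E-cadherin, the classical cadherin of epithelial adherens junctions. On day 3 it stood at 30.9 CPM in the control, 1.53 in d-SMG, 103 in s-GAG, and 66.3 in Alg. On day 7 the values were 35.2, 52.3, 158, and 106 CPM in the same order, and on day 14 they were 62.7, 146, 272, and 103 CPM. The s-GAG library was the highest on each day, and the control was the lowest on day 7 and 14.

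*Dsg2* and *Dsg3* (chromosome 18) encode desmogleins, desmosomal cadherins of which the second is the better known in the lower epidermis. *Dsg2* measured 4.99 CPM in the control of day 3, 0.16 in d-SMG, 44.0 in s-GAG, and 33.8 in Alg, then 9.07, 20.7, 60.6, and 24.8 CPM on day 7, and 10.98, 38.8, 11.4, and 39.4 CPM on day 14. *Dsg3* measured 45.7, 3.78, 100.2, and 73.1 CPM on day 3, 44.5, 89.5, 211, and 147 CPM on day 7, and 67.3, 156, 79.9, and 156 CPM on day 14. For both genes the d-SMG and Alg libraries of day 14 were nearly equal and above the control, and the s-GAG library of that day lay near the control.

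*Dsc2* and *Dsc3* (chromosome 18) encode desmocollins, the partners of the desmogleins. *Dsc3* measured 17.4 CPM in the control of day 3, 0.32 in d-SMG, 149.9 in s-GAG, and 82.0 in Alg, then 28.9, 77.5, 209, and 109 CPM on day 7. On day 14 it measured 99.6 CPM in the control, 107 in d-SMG, 4.09 in s-GAG, and 186 in Alg. The s-GAG library was therefore the highest of its day for *Dsc3* on day 3 and 7 and the lowest on day 14. *Dsc2* stayed between 3.41 and 11.7 CPM in 11 libraries and stood at 0.32 CPM, from 4 reads, in the d-SMG library of day 3.

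The armadillo proteins of the plaque were represented by *Jup*, *Pkp1*, and *Pkp3*. *Jup* (chromosome 10) encodes plakoglobin, which is shared by desmosomes and adherens junctions and is also made outside epithelia. It measured 25.9 CPM in the control of day 3, 22.3 in d-SMG, 42.7 in s-GAG, and 32.6 in Alg, then 14.9, 29.1, 61.9, and 41.9 CPM on day 7, and 31.7, 52.2, 58.1, and 57.9 CPM on day 14. Over the 12 libraries *Jup* had the narrowest span of the 9 genes, 4.16-fold between the lowest and the highest library. It was the only member whose lowest library was not d-SMG on day 3 but the control on day 7. Without the d-SMG library of day 3 the span of *Jup* was also 4.16-fold, and *Dsc2* had the narrowest, 3.42-fold.

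*Pkp1* (chromosome 13) and *Pkp3* (chromosome 1) encode plakophilins, which cluster desmosomal cadherins and bind desmoplakin. *Pkp1* measured 56.9, 4.74, 184, and 129 CPM on day 3 (control, d-SMG, s-GAG, and Alg as before), 46.6, 109, 262, and 156 CPM on day 7, and 147, 268, 80.7, and 376 CPM on day 14. *Pkp3* measured 9.49, 0.16, 39.5, and 24.97 CPM on day 3, 7.03, 16.7, 50.6, and 26.9 CPM on day 7, and 16.1, 48.4, 48.4, and 52.7 CPM on day 14. On day 14 the s-GAG library was the lowest of the 4 for *Pkp1*, whereas for *Pkp3* it lay with the other treated libraries above the control.

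*Dsp* (chromosome 17) encodes desmoplakin, the plakin that binds keratin filaments. It measured 379 CPM in the control of day 3, 8.04 in d-SMG, 3087 in s-GAG, and 1771 in Alg. On day 7 the values were 732, 1490.4, 5366, and 2441 CPM, and on day 14 they were 3074, 2726, 330.4, and 5176 CPM. The d-SMG library of day 3 was the lowest of all 12, followed by the s-GAG library of day 14.

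**Figure D1:**
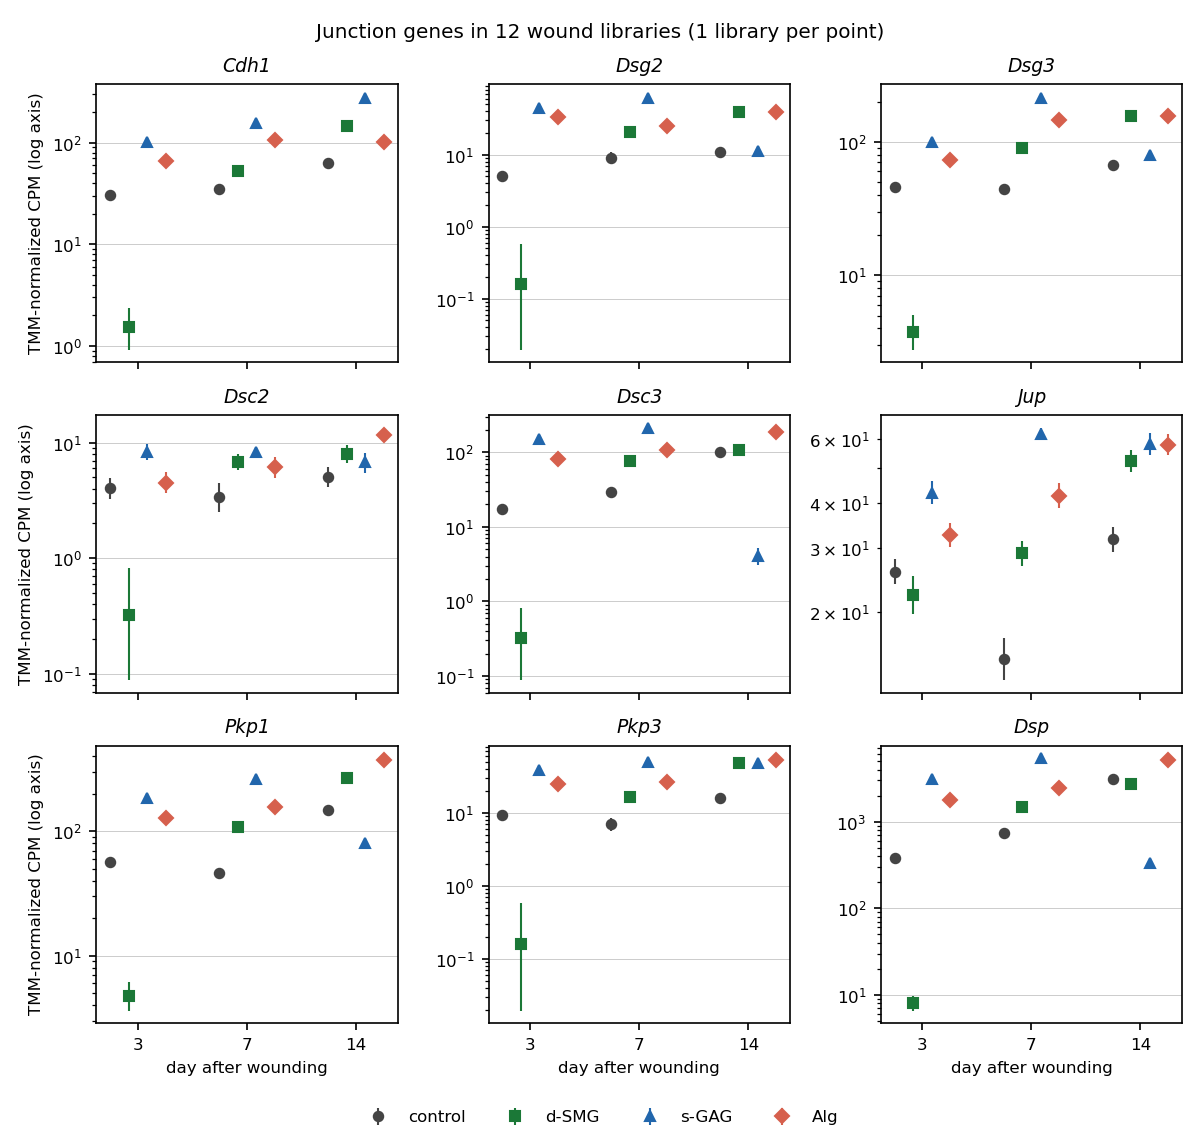
Level of each of the 9 genes in the 12 libraries, in TMM-normalized CPM on a log axis that differs between panels, against the day after wounding. Each point is 1 library, bars are exact 95% intervals that cover the counting error only, and the d-SMG library of day 3 is the lowest point in 8 of the 9 panels.

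On day 3, junction genes were far lower in the d-SMG wound than in the control wound and higher in the s-GAG and Alg wounds. In d-SMG, 8 of the 9 genes were lower past the fold and 0 were higher, where 14.5% of the 15846 genes compared were lower and 9.44% were higher, and the median log2 difference was −4.33. *Dsp* was 47.1-fold lower (log2 −5.56, interval −5.86 to −5.28) and *Cdh1* 20.1-fold lower (log2 −4.33, interval −5.08 to −3.68). *Pkp3* and *Dsg2* rested on 2 reads each in d-SMG, with ratios of 56.7 (log2 interval −8.94 to −4.01) and 29.9 (log2 interval −8.02 to −3.07). *Jup* alone was not past the fold, with a log2 difference of −0.22 (interval −0.43 to −0.01).

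In the s-GAG wound of day 3, 8 of the 9 genes were higher past the fold and 0 were lower, where 14.5% of 16426 genes were higher and 10.9% were lower. *Dsg2* was 8.80-fold higher, *Dsc3* 8.60-fold, and *Dsp* 8.14-fold, while *Jup* was 1.65-fold higher. In the Alg wound, 6 genes were higher past the fold and 0 were lower, where 11.5% of 16487 genes were higher and 8.57% were lower. The same 3 genes led, with *Dsg2* 6.77-fold, *Dsc3* 4.71-fold, and *Dsp* 4.67-fold higher, and *Dsg3*, *Jup*, and *Dsc2* were not past the fold. The s-GAG library was above the Alg library, and the Alg library above the control, for 9 of 9 genes. The 3 treated libraries were set against the same control library on each day, so that these comparisons share its error.

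Markers of other cell types differed in the same libraries. In the d-SMG library of day 3, 16 of 16 skeletal muscle markers were higher past the fold, and 7 of 9 basal and 10 of 11 suprabasal keratinocyte markers were lower. The one basal marker that was higher was *Dst*, which muscle also expresses, at 1369.9 CPM against 490.0 CPM. Summed over the list, basal markers held 1456 CPM in d-SMG, of which *Dst* gave 1369.9, and 5723 CPM in the control, of which *Dst* gave 490.0. The median log2 difference of the 9 basal markers was −4.61. Suprabasal markers summed to 18.6 CPM in d-SMG and 896 CPM in the control. Of the wound keratinocyte markers, 6 of 6 were lower past the fold in d-SMG. In the s-GAG and Alg libraries of day 3, 12 of 12 hair follicle markers were higher past the fold. They summed to 2518 and 1113 CPM against 14.6 CPM in the control. Of 9 basal markers, 4 and 1 were higher. Suprabasal markers were higher in 6 of 12 in s-GAG, and in Alg 3 were higher and 3 lower. Wound keratinocyte markers were higher in 3 and lower in 1 of 6 in s-GAG and higher in 4 of 7 in Alg. Macrophage markers were lower in 3 of 8 in s-GAG and 6 of 8 in Alg. Skeletal muscle markers were higher in 2 and lower in 4 of 16 in s-GAG, and higher in 1 and lower in 7 in Alg. The part of these cell types in the junction genes' values was not tested.

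On day 7, levels of the junction genes in all 3 treated wounds were above those of the control. In s-GAG, 9 of 9 genes were higher past the fold and 0 were lower, with a median log2 difference of 2.49, where 13.5% of 16863 genes were higher and 12.5% were lower. *Dsp* was 7.33-fold higher (log2 2.87, interval 2.85 to 2.90), *Dsc3* 7.22-fold, *Pkp3* 7.19-fold, and *Cdh1* 4.48-fold higher. In Alg, 8 genes were higher and 0 lower, with a median of 1.72, where 12.5% of 15874 genes were higher and 11.7% were lower. *Pkp3* led with 3.82-fold, and *Dsc2*, at 1.81-fold (log2 0.85, interval 0.34 to 1.38), was not past the fold.

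The d-SMG wound of day 7 differed less from the control than the other treated wounds. In it, 7 genes were higher past the fold and 0 were lower, where 6.72% of 16164 genes were higher and 6.37% were lower. *Dsc3* was 2.68-fold higher and *Pkp3* 2.38-fold, and *Cdh1* (1.48-fold) and *Jup* (1.95-fold) were not past the fold. Of the 7 genes, 3 lay just above the mark, *Dsc2* at 2.01-fold, *Dsg3* at 2.01-fold, and *Dsp* at 2.04-fold. The levels ran in the order s-GAG, Alg, d-SMG, control for 8 of the 9 genes, the exception being *Dsc2*, for which d-SMG was above Alg.

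Hair follicle markers were again higher in every treated wound of day 7, 12 of 12 past the fold in each, with summed levels of 743 CPM in d-SMG, 1773 in s-GAG, and 132 in Alg against 16.8 CPM in the control. Basal keratinocyte markers past the fold were 1 of 9 in d-SMG, 5 of 9 in s-GAG, and 5 of 9 in Alg, all higher, and suprabasal markers were higher in 5, 11, and 11 of 12, with 1 lower in Alg. Skeletal muscle markers were lower past the fold in 15 of 16 in d-SMG (summed level 6557 CPM against 71174 CPM in the control), lower in 1 of 16 in s-GAG, and higher in 11 of 16 in Alg. Macrophage markers were lower in 5 of 8 in s-GAG and 8 of 8 in Alg, and 1 of 8 was higher in d-SMG. Fibroblast markers were lower past the fold in s-GAG and in Alg, 7 of 8 in each, and 3 of 8 were lower in d-SMG. Wound keratinocyte markers were higher in 4 of 6 in d-SMG and in Alg. In s-GAG 5 of 7 were higher and 1 was lower. The part of these cell types in the junction genes' values was not tested.

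On day 14, d-SMG and Alg were above the control for most junction genes, and the s-GAG wound held genes on both sides. In Alg, 5 genes were higher past the fold and 0 were lower, with a median log2 difference of 1.20, where 9.1% of 16326 genes were higher and 12.1% were lower. The 5 were *Dsg2* (3.58-fold), *Pkp3* (3.27-fold), *Pkp1* (2.56-fold), *Dsg3* (2.31-fold), and *Dsc2* (2.30-fold). In d-SMG, 4 genes were higher and 0 were lower, where 12.6% of 16395 genes were higher and 16% were lower. These were *Dsg2* (3.53-fold), *Pkp3* (3.01-fold), *Cdh1* (2.33-fold), and *Dsg3* (2.32-fold), while *Dsp* and *Dsc3* lay within 1.13-fold of the control. Skeletal muscle markers were lower past the fold in both wounds, 16 of 16 in each. Hair follicle markers were higher in 11 of 12 in d-SMG and 12 of 12 in Alg. Wound keratinocyte markers were higher in 5 and lower in 1 of 6 in d-SMG and higher in 6 of 6 in Alg. Basal keratinocyte markers were higher in 4 and lower in 1 of 9 in d-SMG and higher in 3 of 9 in Alg, and suprabasal markers were lower in 9 and higher in 1 of 12 in d-SMG (median log2 −2.41) and lower in 3 and higher in 3 of 12 in Alg. The part of these cell types in the junction genes' values was not tested.

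In the s-GAG wound of day 14, *Cdh1* was 4.34-fold higher (log2 2.12, interval 2.03 to 2.21) and *Pkp3* 3.00-fold higher, whereas *Dsp* was 9.31-fold lower (log2 −3.22, interval −3.26 to −3.18) and *Dsc3* 24.3-fold lower (log2 −4.61, interval −5.00 to −4.24). These were 2 genes higher and 2 lower past the fold, where 27.7% of 16517 genes were higher and 30% were lower, so that the junction genes were not past the fold more often than genes at large. *Jup* was 1.83-fold higher and *Pkp1* 1.82-fold lower. *Dsg2*, *Dsg3*, and *Dsc2* lay within 1.33-fold of the control. Scaled by library size alone, 2 genes were higher and 3 lower past the fold and the median log2 of the 9 went from 0.25 to −0.20. In this library hair follicle markers were higher past the fold in 12 of 12 and wound keratinocyte markers in 4 of 7. Basal markers were higher in 4 and lower in 3 of 9, and suprabasal markers higher in 1 and lower in 6 of 12. Skeletal muscle markers were higher in 8 and lower in 4 of 16. Macrophage markers were lower in 7 of 8 and fibroblast markers in 6 of 8. The part of these markers' cell types in these values was not tested.

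**Figure D2:**
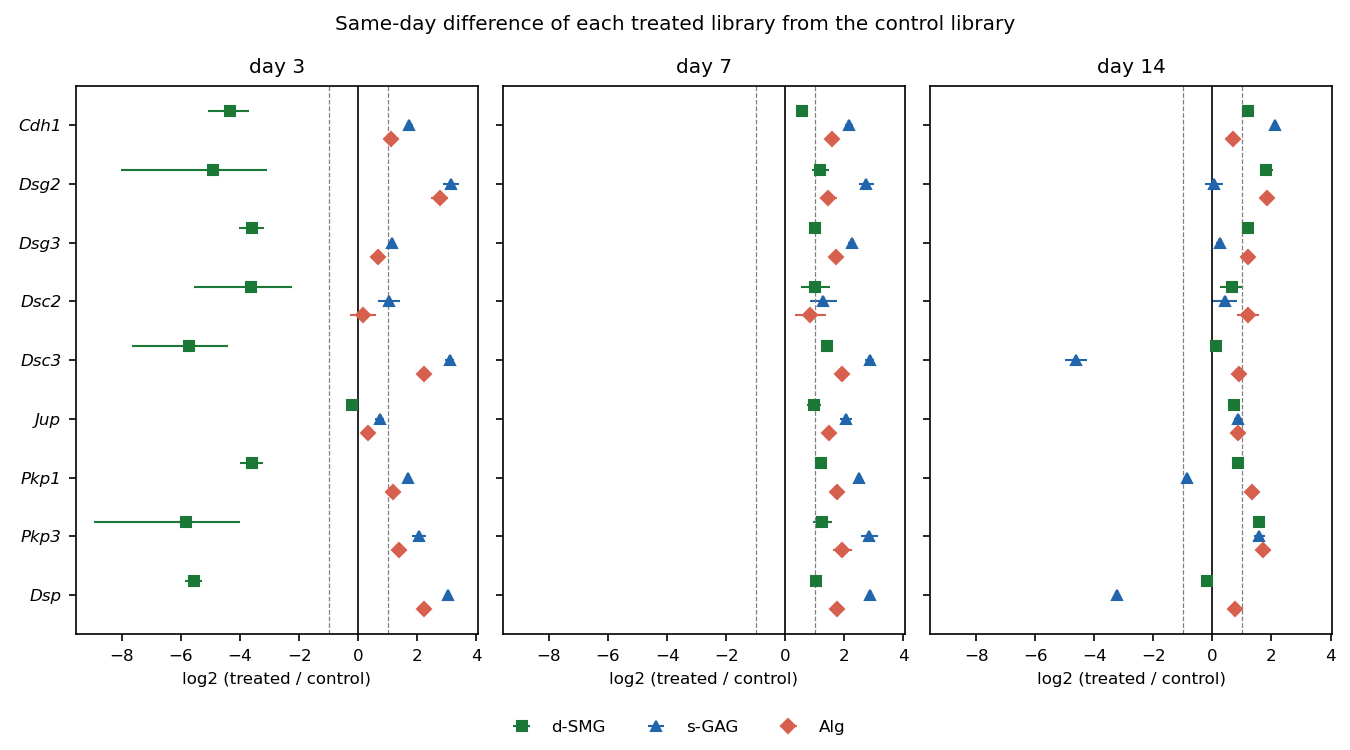
Log2 difference of each treated library from the control library of the same day for the 9 genes, with bars for the exact 95% counting interval and dashed lines at a 2-fold difference. The d-SMG points of day 3 lie below −3 except *Jup*, the points of day 7 lie above 0, and the s-GAG points of *Dsp* and *Dsc3* on day 14 lie below −3.

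The 9 genes were set beside the length classes of that library. Gene lengths implied by the reads and FPKM were 10505 bases for *Dsp*, 7434 for *Dsg3*, 6190.1 for *Dsg2*, 5230 for *Pkp1*, 5079 for *Dsc2*, 4819 for *Cdh1*, 3928 for *Jup*, 3614 for *Pkp3*, and 3155 for *Dsc3*. Over all genes of 4 to 8 kb the median log2 difference was −0.63 (quartiles −1.61 and 0.31) and over genes of 2 to 4 kb it was 0.23 (quartiles −0.76 and 1.16). *Cdh1* (2.12), *Pkp3* (1.59), and *Dsc2* (0.41, interval −0.001 to 0.82) lay above the upper quartiles of their length classes. *Dsp* lay below the lower quartile of genes over 8 kb, which was −2.25. *Dsc3*, the shortest of the 9, was the lowest against the control and below the lower quartile of genes of 2 to 4 kb. *Dsg2*, *Dsg3*, *Pkp1*, and *Jup* lay between the quartiles of their classes. In the other 8 comparisons the medians of the longest and the shortest class differed by −0.94 to 0.93, against −3.06 here. The part of gene length in the junction genes' values was not tested.

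**Figure D3:**
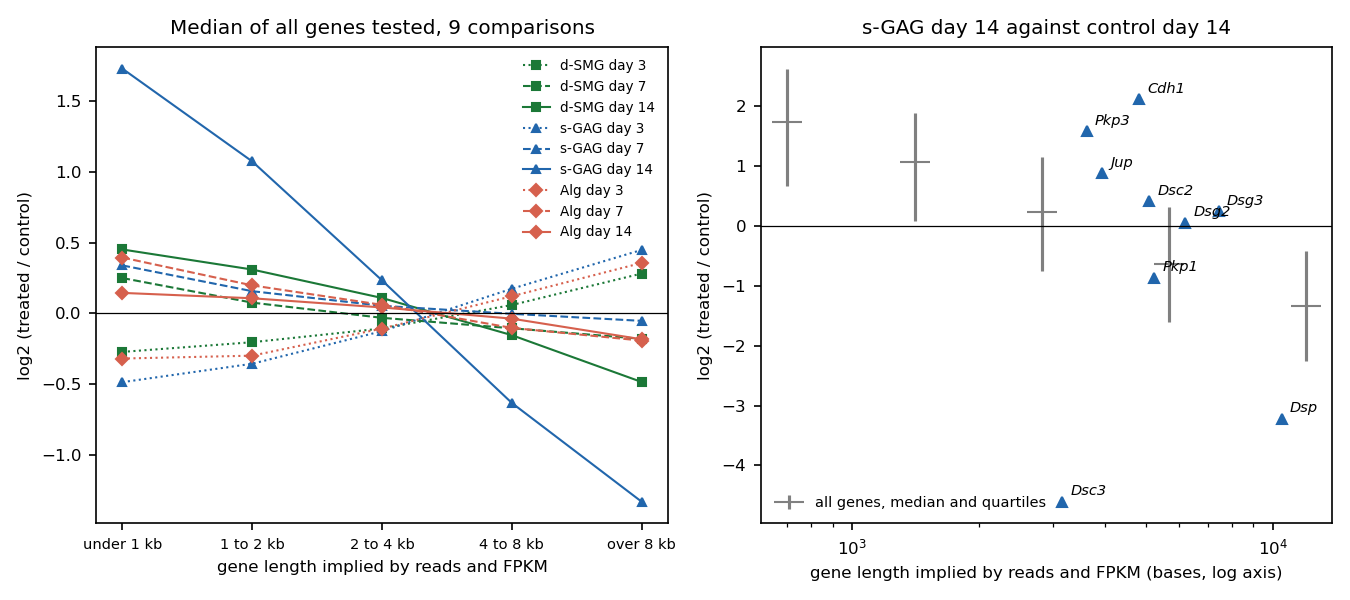
Left, median log2 difference from the same-day control over all genes of each length class, 1 line per treated library. Right, the s-GAG library of day 14 with the class medians and quartiles (grey, drawn at a length inside each class) and the 9 genes at their implied lengths (log axis), of which *Dsc3* and *Dsp* are the lowest and *Cdh1* and *Pkp3* the highest.

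Treatments were compared over the 3 days with the quasi-likelihood test of edgeR, fitted to 16110 genes in all 12 libraries with day as a term, so that the days stood in for replicates. Between s-GAG and control, 9 of 9 genes were above 0 with a median log2 difference of 1.95, against a median of 0.00 over all genes. *Dsg2* differed by 2.41 (SE 1.18), *Pkp3* by 2.19 (SE 1.01), *Cdh1* by 1.97 (SE 0.87), and *Jup* by 1.19 (SE 0.34). 0 of the 9 genes passed an adjusted p of 0.05 by edgeR, with adjusted p-values from 0.417 to 0.671, and 0% of all genes did. *Cdh1* and *Jup* passed an unadjusted p of 0.05, as did 1492 of all genes, and DESeq2 also called 0 of the 9 genes but 290 genes in all.

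The number of calls changed with the libraries that stood apart. Without the s-GAG library of day 14 alone, 0 of the 9 genes and 0 of all genes passed in edgeR (adjusted p of the 9 from 0.397 to 0.702). Without the d-SMG library of day 3, which enters the shared estimate of the spread, 66 of 16104 genes passed in edgeR. *Pkp3* was among them, with a log2 difference of 2.19 (SE 0.35) and an adjusted p of 0.0450. With that library the difference was also 2.19, with an SE of 1.01. All 9 genes were at their lowest of day 3 in that library, so that leaving it out lowers their spread, and the call is no independent support. Without both the d-SMG library of day 3 and the s-GAG library of day 14, a choice made after seeing the data, 177 of 15919 genes passed in edgeR. Among them were 6 junction genes, *Cdh1*, *Dsp*, *Pkp1*, *Pkp3*, *Dsg2*, and *Dsc3*, with the lowest adjusted p at 0.0269. In that fit *Dsp* differed by 2.63 (SE 0.43), *Dsc3* by 2.66 (SE 0.39), and *Dsg2* by 2.89 (SE 0.33), and s-GAG was represented by day 3 and 7 only.

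For Alg against control, 9 of 9 genes were again above 0, with a median log2 of 1.38, against −0.03 over all genes. In edgeR 0 of the 9 passed (all adjusted p = 1), where 0% of all genes passed. *Jup*, at 0.85 (SE 0.33), was the 1 gene with an unadjusted p under 0.05, as were 502 of all genes, and DESeq2 called 0 of the 9 and 88 in all. For d-SMG against control, the differences ran from −0.18 for *Dsp* to 1.03 for *Dsg2* with a median of 0.21. There, 0 of the 9 genes passed in edgeR (all adjusted p = 1), 0 had an unadjusted p under 0.05 against 218 of all genes, and DESeq2 called 0 of the 9 and 9 in all, while 0% of all genes passed in edgeR. The interval of the *Dsp* difference, −3.29 to 2.94, held large changes in either direction, and without day 3 the median of the 9 genes was 0.97.

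Between d-SMG and the s-GAG isolated from it, 9 of 9 genes were below 0 in d-SMG. Their log2 differences ran from −2.13 for *Dsp* to −0.74 for *Jup*, with a median of −1.39, against −0.05 over all genes. In edgeR 0 genes passed (adjusted p from 0.926 to 0.927), as did 0% of all genes, and 0 of the 9 had an unadjusted p under 0.05 against 716 of all genes, and DESeq2 called 0 of the 9 and 28 in all. Without day 3 the median was −0.21, and without day 14 it was −2.73, so that the size of the difference rested on those days.

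Over time, each of the 9 genes was higher at day 7 than at day 3 and higher at day 14 than at day 7 in the d-SMG wounds. The first of these steps started from the d-SMG library of day 3, which was rich in muscle reads and held 2 reads each of *Pkp3* and *Dsg2*. The share of all genes that rose at the same steps was not counted, for these or the other wounds. In the control wounds 4 of 9 genes were higher at day 7 than at day 3, and 9 of 9 were higher at day 14 than at day 7. *Dsp* in the controls went from 379 to 732 and 3074 CPM, and *Dsc3* from 17.4 to 28.9 and 99.6 CPM. In the Alg wounds 8 of 9 were higher at day 7 than at day 3, and 8 of 9 at day 14 than at day 7. In the s-GAG wounds 8 of 9 were higher at day 7 than at day 3, but *Cdh1* alone was higher at day 14 than at day 7. That second step ended in the s-GAG library of day 14, whose difference from the control changed with gene length.

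Days were compared with treatment as a term and the 4 treatments standing in for replicates. The fitted log2 difference of day 14 from day 3 was above 0 for 9 of 9 genes. Their median was 1.55, against 0.01 over all genes, with *Dsp* at 2.16 (SE 1.38) and *Cdh1* at 1.85 (SE 0.80). By edgeR 0 of the 9 and 0% of all genes passed (adjusted p of the 9 from 0.882 to 0.932). *Cdh1* and *Jup* had an unadjusted p under 0.05, as had 798 of all genes, and DESeq2 called 0 of the 9 and 39 in all. For day 7 against day 3 the median of the 9 was 0.77, 0 of the 9 and 0% of all genes passed in edgeR (adjusted p = 0.999), 0 and 292 had an unadjusted p under 0.05, and DESeq2 called 0 of the 9 and 0 in all. For day 14 against day 7 the median was 0.56, 0 of the 9 and 0% of all genes passed in edgeR (adjusted p from 0.904 to 0.974), 0 and 502 had an unadjusted p under 0.05, and DESeq2 called 0 of the 9 and 7 in all. Without the d-SMG libraries the median was 0.73 for day 14 against day 3 and 0.31 for day 7 against day 3.

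Pairs of genes from 1 family did not keep a fixed ratio. On the FPKM scale *Dsc3* was a median of 23.6 times *Dsc2*, at 6.94, 13.8, and 31.7 on day 3, 7, and 14 in the control wounds and 40.7 in the s-GAG wound of day 7. In the s-GAG wound of day 14 the ratio was 0.98, and in the d-SMG wound of day 3, where each gene had 4 reads, it was 1.60. *Dsg3* was a median of 3.84 times *Dsg2*, with the highest ratio, 19, in the d-SMG wound of day 3, where *Dsg2* had 2 reads. On day 3 that ratio was 7.62 in the control and 1.90 and 1.80 in the s-GAG and Alg wounds, where *Dsg2* was above the control by a larger factor than *Dsg3*. *Pkp1* was a median of 4.06 times *Pkp3* and lay between 3.20 and 6.29 in 10 libraries, with 1.15 in the s-GAG wound of day 14 and 22.7 in the d-SMG wound of day 3, where *Pkp3* had 2 reads.

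**Figure D4:**
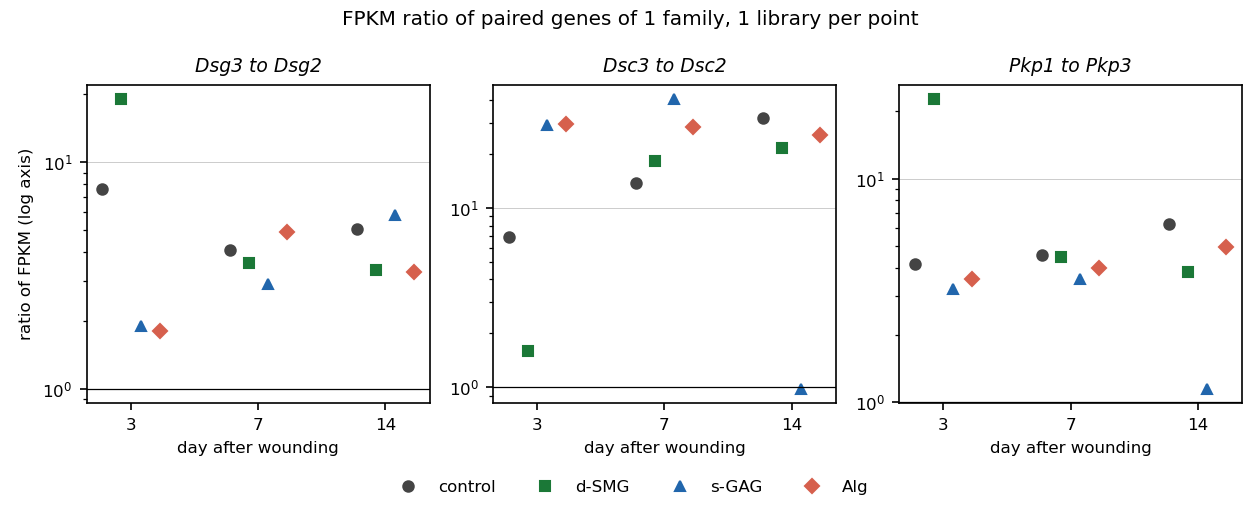
Ratio of the FPKM values of *Dsg3* to *Dsg2*, *Dsc3* to *Dsc2*, and *Pkp1* to *Pkp3* in each library (log axis, the line marks a ratio of 1) against the day. The s-GAG library of day 14 has the lowest *Dsc3* to *Dsc2* and *Pkp1* to *Pkp3* ratios, 0.98 and 1.15.

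Set against 9 basal keratinocyte markers, the junction genes differed in how much they varied. The log2 CPM of *Dsg3* minus the mean log2 CPM of the markers stayed within a range of 1.11 over the 12 libraries, and that of *Dsc2* within 1.11, also with the d-SMG library of day 3 among them. In that library *Dsc2* rested on 4 reads (0.32 CPM, interval 0.09 to 0.82), so that its place in the range is loosely known. The marker mean there includes *Dst*, the one basal marker that was higher than in the control. *Pkp1* ranged over 2.23. *Dsc3*, *Jup*, and *Dsp* had the widest ranges, 5.22, 4.61, and 4.53. Without the d-SMG library of day 3 and the s-GAG library of day 14, the range of *Jup* was 1.18, that of *Cdh1* went from 2.95 to 1.11, and those of *Dsc3* and *Dsp* were 2.54 and 2.90, so that the wide range of *Jup* rested on those libraries. *Jup* was 0.58 above the marker mean in the d-SMG library of day 3 and lay between −4.02 and −2.55 in the other 11 libraries. *Dsp* relative to the markers went from 0.75 on day 3 to 1.60 on day 7 and 3.43 on day 14 in the control wounds, and stood at −0.05 in the s-GAG wound of day 14.

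**Figure D5:**
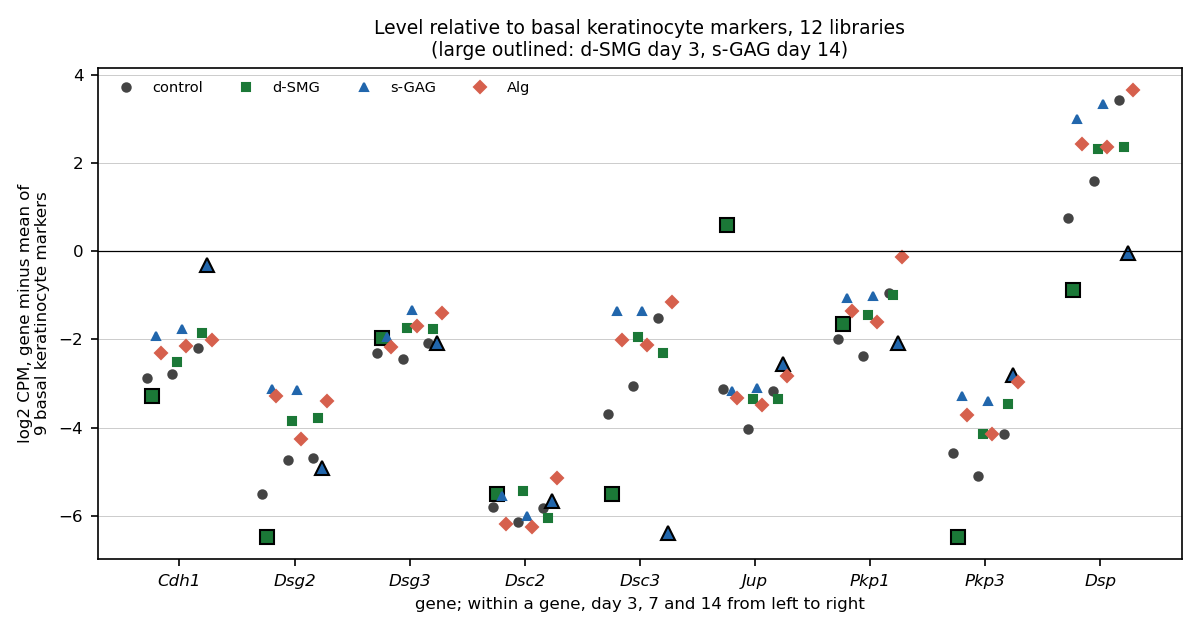
Log2 CPM of each gene minus the mean log2 CPM of 9 basal keratinocyte markers, 1 point per library, with day 3, 7, and 14 from left to right within a gene. *Dsg3* and *Dsc2* form narrow bands, though the *Dsc2* point of the d-SMG library of day 3 rests on 4 reads. The outlined points show *Jup* far above its other values in the d-SMG library of day 3 and *Dsc3* at its lowest in the s-GAG library of day 14.

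The other desmosome genes of a list of 9 were *Dsg1*, *Dsg4*, *Dsc1*, *Pkp2*, *Perp*, *Ppl*, *Evpl*, *Kazn*, and *Pnn*. In s-GAG, 7 of 9 were higher past the fold on day 3 and 7 of 9 on day 7, with 0 lower, whereas on day 14 2 were higher and 4 lower, with a median log2 of −0.94. Of all genes compared in s-GAG, 14.5%, 13.5%, and 27.7% were higher on day 3, 7, and 14, and 10.9%, 12.5%, and 30% were lower. In Alg, 7 of 9 of these desmosome genes were higher and 1 lower on day 3. On day 7 and 14, 6 of 8 and 1 of 9 were higher in Alg, with 0 lower. Of all genes in Alg, 11.5%, 12.5%, and 9.1% were higher on the 3 days, and 8.57%, 11.7%, and 12.1% were lower. *Evpl*, envoplakin of the desmosome and cornified envelope, had log2 differences of 2.77 and 2.66 in s-GAG on day 3 and 7. Those of *Dsg1*, the desmoglein of the upper epidermis, were 2.93 and 2.72. *Dsg4*, a desmoglein of the hair shaft, had 0 reads in the controls of day 3 and 7 and stood at 13.1 and 7.98 CPM in s-GAG. In d-SMG on day 3, *Dsg1* (log2 −5.51), *Perp* (−6.26), and *Dsc1* (−4.98) were among 5 of 8 genes lower past the fold, whereas *Pkp2* (0.27), *Kazn* (0.54), and *Pnn* (0.81) were not. In that comparison 14.5% of all genes were lower.

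Partners at the adherens junction differed less as a list. Of 17 genes, 5 were lower and 0 higher past the fold in d-SMG on day 3, with a median log2 of −0.26, and 8 were higher and 2 lower in s-GAG, with a median of 0.27. P-cadherin, *Cdh3*, differed by −4.02 in d-SMG and 2.69 in s-GAG, and *Nectin4* by −3.56 and 2.83. The catenins *Ctnnb1* and *Ctnna1*, which bind cadherins in many cell types, lay between −0.56 and 0.27 in those wounds. N-cadherin, *Cdh2*, of mesenchymal and neural cells, was below the control in all 9 comparisons, from −0.19 to −1.57. In s-GAG on day 7, 6 of the 17 partners were higher and 3 lower, and in s-GAG on day 14, 4 were higher and 7 lower, among them *Ctnnd1*, p120 catenin, at −3.60. Of all genes compared, 14.5% were lower and 9.44% higher in d-SMG on day 3. In s-GAG, 14.5%, 13.5%, and 27.7% of all genes were higher on day 3, 7, and 14, and 10.9%, 12.5%, and 30% were lower.

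Of 17 tight junction genes, 8 of 14 were lower and 0 higher past the fold in d-SMG on day 3, and in s-GAG 8 of 16 were higher and 1 lower on day 3, 11 of 16 higher and 0 lower on day 7, and 5 of 16 higher and 4 lower on day 14. Of all genes, 14.5% were lower in d-SMG on day 3. In s-GAG 14.5%, 13.5%, and 27.7% of all genes were higher on day 3, 7, and 14, and 10.9%, 12.5%, and 30% lower. On day 14 the tight junction genes in s-GAG were thus past the fold about as often as genes at large. In Alg 2 of 16, 5 of 15, and 2 of 16 were higher on day 3, 7, and 14, and 1 was lower, on day 14. Of 15 epithelial transcription and splicing factors, 13 were lower in d-SMG on day 3, with *Ovol1*, *Ovol2*, and *Elf3* at 0 reads. In s-GAG 12, 15, and 8 were higher on day 3, 7, and 14, with 0 lower. In Alg 11, 11, and 6 were higher on those days, and 1 was lower, on day 3. Of all genes in Alg, 11.5%, 12.5%, and 9.1% were higher on those days, and 8.57%, 11.7%, and 12.1% were lower. *Tp63*, the p63 regulator of stratified epithelium, differed from the control by −2.49 in d-SMG on day 3 and by 1.89, 2.40, and 1.58 in s-GAG on day 3, 7, and 14. Of 10 mesenchymal transition genes, 0 were higher and 6 lower in s-GAG on day 7, and 0 were higher and 5 lower in Alg on day 7. Of all genes, 12.5% and 11.7% were lower there. The other comparisons were less one-sided. In d-SMG 0, 1, and 3 of the 10 were higher and 2, 0, and 2 lower on day 3, 7, and 14. In s-GAG 0 were higher and 2 lower on day 3 and on day 14. In Alg 0 were higher and 0 lower on day 3, and 0 higher and 2 lower on day 14. Over the 3 days, edgeR called 0 genes of each of these lists between s-GAG and control, where their medians were 1.48 for other desmosome genes, 0.13 for adherens partners, 0.99 for tight junction genes, 1.71 for the factors, and −0.53 for the mesenchymal genes.

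The genes outside the 9 whose profile was nearest to their mean profile over the 12 libraries were *Celsr1*, *Col17a1*, *Fam167a*, *Ripk4*, and *Tmem79*, by the mean absolute log2 difference after centring. Their distances were 0.23, 0.25, 0.26, 0.27, and 0.28, against a median of 1.24 over 10817 genes. *Col17a1* encodes the hemidesmosomal collagen of basal keratinocytes and is one of the basal markers. Among the 9, *Pkp1* (0.23) and *Dsg3* (0.28) were the nearest to that mean and *Jup* (0.90), *Dsc3* (0.90), and *Dsp* (0.74) the farthest.

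Promoters are shown for *Dsp*, with the widest span over the 12 libraries, for *Jup*, with the narrowest, and for a plakophilin. Genes with unlike spans can so be read side by side. Without the d-SMG library of day 3, *Dsc3* (51.1-fold) spanned more than *Dsp* (16.2-fold), and *Dsc2* (3.42-fold) less than *Jup* (4.16-fold). The sequences are the 300 bases from 250 before to 50 after the start in the RefSeq table of build GRCr8, given 5′ to 3′ on the minus strand, for *Dsp* chr17:26877072-26877371, for *Jup* chr10:85827380-85827679, and for *Pkp1* chr13:49909113-49909412. Capitals mark CAGGTG, the E-box that the Snail and ZEB repressors of *Cdh1* are known to bind, and GGGCGG, the GC box of Sp factors, each on either strand.
Dsp: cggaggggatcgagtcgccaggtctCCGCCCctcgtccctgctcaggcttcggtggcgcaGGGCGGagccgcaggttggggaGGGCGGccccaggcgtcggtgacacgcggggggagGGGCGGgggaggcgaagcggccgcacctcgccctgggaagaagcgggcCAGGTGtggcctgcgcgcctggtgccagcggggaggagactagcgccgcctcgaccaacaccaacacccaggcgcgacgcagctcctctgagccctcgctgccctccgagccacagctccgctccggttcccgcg
Jup: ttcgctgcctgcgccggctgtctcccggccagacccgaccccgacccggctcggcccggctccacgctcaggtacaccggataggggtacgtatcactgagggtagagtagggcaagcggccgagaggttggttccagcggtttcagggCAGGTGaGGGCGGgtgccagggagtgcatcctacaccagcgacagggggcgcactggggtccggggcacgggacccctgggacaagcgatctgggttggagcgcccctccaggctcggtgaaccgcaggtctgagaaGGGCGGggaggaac
Pkp1: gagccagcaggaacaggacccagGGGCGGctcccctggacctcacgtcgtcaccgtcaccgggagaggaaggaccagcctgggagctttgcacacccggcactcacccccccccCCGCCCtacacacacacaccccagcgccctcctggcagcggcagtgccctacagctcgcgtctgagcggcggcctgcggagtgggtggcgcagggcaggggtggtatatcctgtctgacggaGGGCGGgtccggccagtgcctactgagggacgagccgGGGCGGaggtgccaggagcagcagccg

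Of the 9 genes, 7 had a promoter in that table, *Cdh1* and *Pkp3* being without an entry. CAGGTG was found in 4 of the 7 (*Dsp*, *Jup*, *Dsg2*, and *Dsc2*), where 18.8% of all 33469 promoters of the same length held it. GGGCGG was found in 6 of the 7, with *Dsg3* as the exception, where 33.1% of all promoters held it. AACCGGTT, a site of grainyhead-like factors, was found in 0 of the 7 and in 0.173% of all promoters. The median GC content of the 7 was 69.0%, against 51.7% over all promoters. *Jup*, *Dsp*, *Dsg2*, and *Dsc2* held both motifs. In the d-SMG library of day 3 their log2 differences from the control were −0.22, −5.56, −4.90, and −3.62, the last 2 from 2 and 4 reads in d-SMG. A part of the motifs in these values was not tested.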

How the data were processed

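Wound tissue of diabetic rats was sequenced by the authors as stranded, rRNA-depleted libraries with paired reads of 150 bases. The authors deposited unnormalized read counts per gene and FPKM values, which are scaled by gene length and library total. The submitters' processing notes name bcl2fastq, FastQC, TopHat2, and edgeR. The genome build and the counting tool are not given in the sources used here. Of the columns of values, 1 in each table matched no described sample and was not used.

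Library totals were 13748887 to 38302461 reads on genes. Counts were TMM-normalized over the 12 libraries with edgeR 4.0.16 in R 4.3.3. Same-day log2 differences used a prior count of 0.125 and exact Clopper-Pearson intervals. The members were few enough to be named in full, and list genes were named from the junction and factor lists or, for markers, from the 3 highest by mean FPKM and wherever a count had to be explained. Nearest genes were the 5 with the smallest distance among genes with a mean of at least 100 reads and a prior count of 2. Genes kept by filterByExpr (16110) were tested with glmQLFit and glmQLFTest, with day and treatment as terms and Benjamini-Hochberg adjustment at 0.05 over all genes tested. Alternatives were DESeq2 1.42.0, other size factors, filters, folds, and prior counts, FPKM with a pseudocount of 1 or 0.1, no block for the paired libraries, and left-out libraries. The libraries are not stated to be separate animals. With day and treatment both in the fit, the p-values rest on the spread left after these terms. That remainder mixes unevenness of the treatment differences across days with variation between single libraries. With 1 library for each treatment and day, these sources cannot be told apart. The 9 genes and the 17 lists, in which 180 of 182 genes were found, were chosen with earlier results of these data known. Implied gene lengths were taken from reads and FPKM in libraries with an FPKM of at least 0.5. Symbols were matched to RefSeq for 21825 of the 25620 genes.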

Additional observations from a re-analysis of the deposited data

Results flagged for a closer look

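The difference from the same-day control ran in opposite directions on different days for 15 pairs of values, past the fold on both days. The difference between days was not tested, since each value rests on 2 libraries. For d-SMG, day 7 minus day 3 on the log2 scale was 6.58 for *Dsp*, 4.80 for *Pkp1*, 7.08 for *Pkp3*, 6.09 for *Dsg2*, 4.60 for *Dsg3*, 4.63 for *Dsc2*, and 7.15 for *Dsc3*. Day 14 minus day 3 was 5.55 for *Cdh1*, 7.41 for *Pkp3*, 6.72 for *Dsg2*, and 4.81 for *Dsg3*. All of these share the d-SMG library of day 3, in which 16 of 16 muscle markers were higher past the fold. For s-GAG, day 14 minus day 3 was −6.24 for *Dsp* and −7.71 for *Dsc3*, and day 14 minus day 7 was −6.09 for *Dsp* and −7.46 for *Dsc3*. These share the s-GAG library of day 14, whose difference from the control changed with gene length.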

How the results depend on the processing

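Of 72 same-day counts of junction genes past the fold under other settings, 64 were within 1.5 times the value given. Of 405 same-day log2 differences of single junction genes under other settings, 120 fell outside the counting interval of the value given. Those intervals therefore do not cover the choice of processing. Of 150 medians of the 9 genes, 13 moved beyond the interval or SE used as the mark and 6 changed sign. Scaling by library size put the median of all genes at −0.48 for s-GAG on day 14, −0.45 for d-SMG on day 3, and 0.31 for d-SMG on day 7. At a 4-fold mark the counts were 4 for s-GAG and 3 for Alg on day 3, 0 for d-SMG and 0 for Alg on day 7, and 0 for d-SMG and 0 for Alg on day 14, and at 1.5-fold they were 7 for d-SMG and 9 for Alg on day 14. The median log2 of s-GAG on day 14 turned to −0.20 with scaling by library size, −0.14 with log2(FPKM + 1), and −0.16 with log2(FPKM + 0.1). The median of d-SMG against control over the days turned to −0.20 with only the groups compared, to −0.20 without day 7, and to −0.36 without day 14, and its values with 1 day left out ran from −0.36 to 0.97. The causes were not tested.

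Genes called by DESeq2 were 9, 290, 88, and 28 for d-SMG, s-GAG, and Alg against control and d-SMG against s-GAG, and 7 and 39 for day 14 against day 7 and against day 3. For s-GAG against control, edgeR called 1 gene with no filter, 12 with only the groups compared, 0 without the s-GAG library of day 14, 66 without the d-SMG library of day 3 (1 of the 9 junction genes), and 177 without that library and the s-GAG library of day 14 (6 of the 9), and for Alg 9 with only the groups compared. Leaving out each day or treatment, and the fit without the replicate block, which pairs libraries by day or treatment, called 0 of the 9 genes in the 7 comparisons. Without the block the median log2 was 1.31 for s-GAG and 0.61 for d-SMG against control.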
